A study of Mus musculus with 6 samples.

Results

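The insulin-like growth factor (IGF) system was followed through 9 genes of the 16494 in the deposited table. They are the growth factors Igf1 and Igf2, the type 1 receptor Igf1r, and the binding proteins Igfbp2, Igfbp3, Igfbp4, Igfbp5, Igfbp6 and Igfbp7, chosen by name. Each had its own row, and each was described across cell types set by marker genes and between 3 wild-type (WT) and 3 Aromhum male mice. The mice were FVB/N, 9 to 10 weeks old, and the tissue was the lower abdominal muscle (LAM), digested with enzymes to a suspension of single cells for 10x Genomics 3' sequencing. Aromhum mice carry the human aromatase gene CYP19A1 with its own promoters, so that tissues of these mice make estrogen from androgen, and the labels give them scrotal hernia. WT mice are the controls, and the labels give no other allele or treatment in either group.

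IGF1 and IGF2 are secreted peptides that signal through the IGF1 receptor, a tyrosine kinase, to promote growth and survival of cells, and in skeletal muscle IGF1 is known for supporting fibre growth and regeneration. The binding proteins are secreted by many cells, hold most of the growth factor outside cells, and release it when proteases such as PAPP-A cut them. IGFBP7 binds IGFs only weakly and is best known as a product of vessel walls, and IGFBP6 binds IGF2 in preference to IGF1.

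The table held 63647 barcodes with 64958237 to 111826460 unique molecular identifiers (UMIs) per mouse, and all of them entered the main results. CYP19A1 had 0 UMIs in each WT library and 770, 797 and 787 UMIs in the libraries of Aromhum mice 1 to 3. Barcodes with over 5% mitochondrial UMIs made up 38.0, 68.2 and 40.1% of the WT libraries and 30.4, 30.9 and 27.6% of the Aromhum libraries, so WT mouse 2 stood apart. The 15 pairs of libraries shared 19 to 48 barcode sequences each. A level is given below as CPM, the gene's UMIs per 1000000 UMIs of a mouse's cells of that type, which for 3' tags does not scale with gene length. Fibroblast-like cells carried all 8 of their markers (among them Pdgfra, Col1a1 and Dcn), with a summed level of 43698 to 46059 CPM in WT mice and 43583 to 51029 CPM in Aromhum mice, and their blood endothelial marker sum was 65.6 to 83.3 CPM in WT mice and 66.9 to 72.2 CPM in Aromhum mice. Blood endothelial cells carried all 8 of theirs, with 7125 to 7634 CPM in WT mice and 5809.8 to 6258 CPM in Aromhum mice.

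The growth factors were unevenly spread over cell types. Igf1 (chr10:87858265-87937047, mouse build GRCm38) was highest in connective tissue cells. Its level was 538 ± 222 CPM (mean and SD, n = 4, WT mouse 1 and the 3 Aromhum mice) in the fibroblast-like subgroup marked by Mmp3, 526 ± 355 CPM (n = 6) in tenocyte-like cells and 508 ± 202 CPM (n = 6) in a fibroblast-like cluster led by Tspan8. These means pool genotypes, and in WT mice tenocyte-like cells (255 to 302 CPM) were close to FAP-like cells (256 to 267 CPM) and below Tspan8-led cells (299 to 392 CPM) in each mouse. The pooled means of the Mmp3, tenocyte-like and Tspan8-led cells did not differ beyond their spread, and Tspan8-led cells were above tenocyte-like cells in 4 of 6 mice. The lowest levels were 8.25 ± 1.85 CPM in capillary and 3.01 ± 2.54 CPM in arterial endothelial cells (n = 6). A UMI of Igf1 was found in 68.1% of fibroblast-like cells (median depth 9932 UMIs) against 5.91% of T cells (2569 UMIs). After thinning to 1000 UMIs the shares were 24.6 and 2.03%. This left out 459 fibroblast-like cells and 14 T cells that had fewer than 1000 UMIs.

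Igf2 (chr7:142650768-142666816), the growth factor used most before birth, was close to absent from these suspensions of adult LAM cells. The study filtered them to remove multinucleated cells, so the levels do not cover whole muscle fibres. The library totals were 33, 45 and 66 Igf2 UMIs in WT mice 1 to 3 and 28, 0 and 52 in Aromhum mice 1 to 3. Arterial endothelial cells had the highest level, 8.06, 6.69 and 7.19 CPM in WT mice 1 to 3 and 6.78, 0 and 8.01 CPM in Aromhum mice 1 to 3. A UMI was seen in 3.72% of arterial cells and 0.0758% of fibroblast-like cells. In the library of Aromhum mouse 2, 0 of 13764 barcodes had an Igf2 UMI, which allows a share of up to 0.0218% of barcodes, and 0 of its 185 arterial cells, which allows up to 1.62% of arterial cells with a UMI (counting error only, and no limit on cells that express the gene below detection). The other Aromhum libraries did not share this zero, with 10 of 301 and 21 of 358 arterial cells positive.

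The receptor gene Igf1r (chr7:67952257-68233668) had UMIs in every cell type, and no background from free RNA was estimated. It was highest in T cells (168 ± 79.6 CPM, n = 6) and neutrophils (168 ± 57.9 CPM, n = 4), a pair that did not differ beyond its spread. The neutrophil level rested on few UMIs, from 10 cells each in WT mice 1 and 2 and 23 and 58 in Aromhum mice 1 and 2. The median depth of neutrophils was 945 UMIs. Non-myelinating glia were next by mean with 124 ± 14.2 CPM, below T cells in 4 of 6 mice, and stood above MuSC/myoblasts, the muscle stem cells (89.5 ± 7.46 CPM), in 6 of 6 mice. The cells named myonuclei, from muscle fibre markers, had the lowest level, 12.9 ± 6.67 CPM. The study states that its cluster of this kind may be a few retained myonuclei, and whole fibres were filtered out. The cell types richest in Igf1 were therefore not those richest in its receptor, and across 22 cell types the log levels of the 2 genes had r = -0.12 (Pearson, described without a test, since types share libraries and depth).

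Each binding protein had a cell type pattern of its own. Igfbp4 (chr11:99040005-99052655) was highest in fibroblast-like subgroups, with 1712 ± 918 CPM in the subgroup marked by the estrogen receptor gene Esr1 (Esr1-hi), 1687 ± 761 CPM in Mmp3-hi cells (n = 4, WT mouse 1 and the 3 Aromhum mice), 1297 ± 622 CPM in FAP-like cells (fibro/adipogenic progenitors) and 1153 ± 279.8 CPM in the subgroup marked by Dmkn. These means pool genotypes, and in WT mice 1 and 3 Dmkn cells (1268 and 1164 CPM) were above Esr1-hi cells. Among endothelial cells it separated arterial cells, at 829.6 ± 359.7 CPM, from capillary cells, at 25.9 ± 8.86 CPM, the lowest of all types. Igfbp3 (chr11:7206086-7215498), the main carrier of IGF1 in blood, was highest in tenocyte-like cells (402 ± 95.0 CPM), arterial cells (349 ± 104 CPM) and capillary cells (198 ± 27.2 CPM). Tenocyte-like cells were above arterial cells in 5 of 6 mice, and arterial above capillary cells in 6 of 6.

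Igfbp5 (chr1:72858065-72874865), a matrix-binding member, was highest in lymphatic endothelial cells (2553 ± 411 CPM) and the Dmkn subgroup (2414 ± 663 CPM), an order that held in 4 of 6 mice. Smooth muscle cells (1928 ± 233 CPM) and Esr1-hi cells (1919 ± 704 CPM) came next and did not differ beyond their spread. Blood endothelium of capillaries and arteries was at the other end, with 32.5 ± 21.8 and 29.8 ± 10.7 CPM. Igfbp5 thus marked lymphatic against these blood vessel cells. Igfbp2 (chr1:72824480-72852474), its neighbour on chromosome 1, was carried by few cells. In Esr1-hi cells it was at 40.4, 32.1 and 655 CPM in WT mice 1 to 3 and 2.52, 35.8 and 40.7 CPM in Aromhum mice 1 to 3. WT mouse 3, the highest, owed 954 UMIs to 27 of 110 cells, and the 10 richest of these cells held 86.3% of them. Mesothelial cells, which line the abdominal cavity, had 30.6 ± 16.4 CPM of Igfbp2.

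Igfbp6 (chr15:102144186-102149512) was abundant in the connective tissue and mesothelial cells. It reached 5559.6 ± 1330.5 CPM in the Dmkn subgroup, 5533 ± 1627 CPM in mesothelial cells and 4336 ± 804 CPM in Tspan8-led cells, with venular endothelial cells lowest at 25.5 ± 11.1 CPM. Igfbp7 (chr5:77349240-77408045) was highest in capillary cells, with 5294 ± 637 CPM in capillary endothelial, 4191 ± 891 CPM in smooth muscle and 3645 ± 1170.0 CPM in venular endothelial cells. The fibroblast-like cluster led by Gdf10 came second, at 4558 ± 995 CPM. Other vessel cells were lower, pericytes at 2107 ± 619.6 CPM and arterial cells at 1643 ± 345 CPM, below mesothelial (3522 ± 1329.6 CPM) and tenocyte-like cells (3229 ± 493 CPM). Lymphatic endothelial cells were low in Igfbp7 (354 ± 102 CPM), the type in which Igfbp5 was highest (each mean and SD, n = 6).

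**Figure D1:**
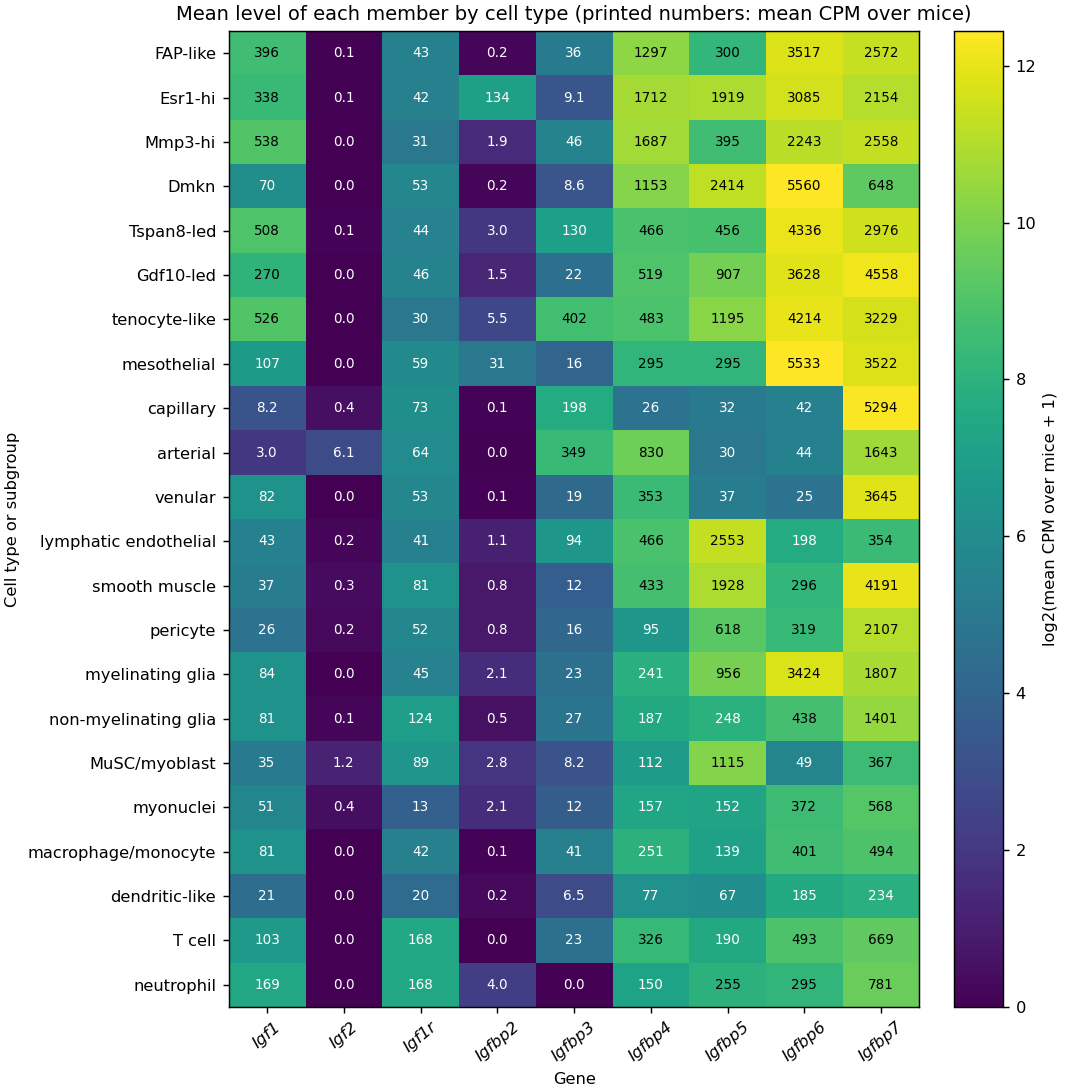
Mean level of the 9 genes (columns) in 22 cell types and subgroups (rows), coloured by log2(mean CPM over mice + 1), with the mean CPM printed in each cell. Igfbp7 is brightest in capillary cells (5294 CPM), Igfbp6 in the Dmkn subgroup and mesothelial cells, and Igf2 reaches 6.12 CPM at most, in arterial cells.

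Genes with the most similar pattern over the 22 types were taken as the 3 with the highest Pearson r of log levels. For Igf1 these were Olfml3 (r = 0.87), Medag (r = 0.87) and Svep1 (r = 0.85), all highest in connective tissue cells. Igf2 went with Gkn3 (r = 0.89), Gja5 (r = 0.88) and Hey1 (r = 0.70), of which Gja5 and Hey1 are arterial markers that also served to name the arterial cells. Igfbp6 had the closest companions of all, Col14a1 (r = 0.96), Dcn (r = 0.96) and Fbln1 (r = 0.95), which encode matrix proteins of fibroblasts. Igfbp4 went with Nupr1 (r = 0.82), Scara3 (r = 0.81) and Timp2 (r = 0.79), and Igfbp5 with Rbms3 (r = 0.84), Cacna2d1 (r = 0.83) and Tgfb2 (r = 0.82). The best r for Igfbp3 was 0.77 (Fgd5), for Igfbp7 0.81 (Pls3), for Igf1r 0.87 (Yme1l1) and for Igfbp2 0.75 (Wfdc2), a gene highest in mesothelial cells. Cell types share libraries and depth, so these r are descriptions.

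Fibroblast-like cells held most of the UMIs of several members. For Igfbp4 their share of a library's UMIs was 73.3, 59.2 and 46.7% in WT mice 1 to 3 and 86.4, 87.5 and 82.7% in Aromhum mice 1 to 3. The Aromhum mice all lay above the WT mice. The share of all UMIs that came from fibroblast-like cells was higher in Aromhum mice too, with 31.8% ± 12.2 in WT mice and 56.3% ± 6.95 in Aromhum mice (SD, n = 3 each). They were 3389 of 10168, 2198 of 10820 and 1388 of 7905 barcodes in WT mice 1 to 3. In Aromhum mice 1 to 3 they were 4743 of 12011, 6769 of 13764 and 3186 of 8979, a higher share in each. Their median depth overlapped, with 8564, 9285 and 10128 UMIs in WT mice 1 to 3 and 11767, 8920 and 12772 in Aromhum mice 1 to 3. Fewer cells of other types and more of this one cannot be told apart in such shares. Igf1 UMIs lay in fibroblast-like cells for 69.8% ± 7.96 in WT mice and 80.2% ± 6.92 in Aromhum mice (SD, n = 3 each), and Igfbp6 UMIs for 64.6% ± 9.17 in WT mice and 70.6% ± 7.63 in Aromhum mice (SD, n = 3 each). For Igfbp7 the fibroblast-like share was 27.6% ± 9.16 in WT mice and 49.9% ± 10.0 in Aromhum mice (SD, n = 3 each), and the blood endothelial share 35.0% ± 5.08 in WT mice and 15.4% ± 5.85 in Aromhum mice (SD, n = 3 each). Igfbp3 UMIs were divided, with 21.4% ± 13.4 in WT mice and 35.8% ± 12.1 in Aromhum mice (SD, n = 3 each) in fibroblast-like cells and 35.4% ± 5.59 in WT mice and 23.4% ± 6.14 in Aromhum mice (SD, n = 3 each) in blood endothelial cells.

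**Figure D2:**
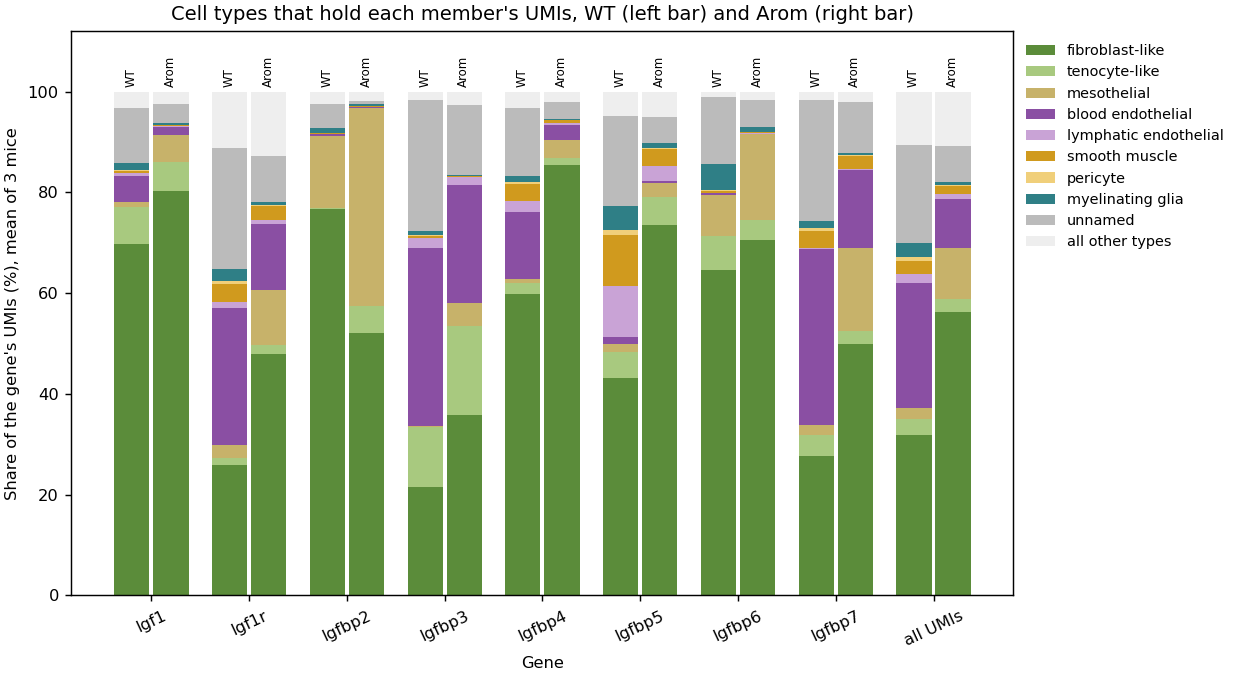
Share of each gene's UMIs held by each cell type (percent, stacked bars, mean of 3 mice), with WT in the left bar and Aromhum in the right bar of each gene. The fibroblast-like part of Igfbp4 is 59.8% in WT and 85.5% in Aromhum mice, beside 31.8 and 56.3% of all UMIs; Igf2 is not drawn.

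The genotypes were first compared in fibroblast-like cells (3389, 2198 and 1388 cells in WT mice 1 to 3 and 4743, 6769 and 3186 in Aromhum mice 1 to 3), on UMIs summed per mouse. Igfbp4 rose 2.72-fold in Aromhum mice and Igfbp3 fell to 0.472 of its WT level. The other 6 members tested did not pass an adjusted p of 0.05 in edgeR, and Igf2 was too low to test. DESeq2 called 5, the others being Igf1, Igf1r and Igfbp5 (adjusted p = 0.0217, 0.0181 and 0.0366). The called members were 2 of 8, where 13.4% of the 13838 genes tested were called in either direction (7.29% higher and 6.08% lower), and the median log2 difference was -0.14 over the members and 0.00907 over all genes.

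Igfbp4, whose product restrains IGF action until PAPP-A cuts it, was at 861, 586 and 625 CPM in WT mice 1 to 3 and 2435, 1638 and 1669 CPM in Aromhum mice 1 to 3. All Aromhum mice were well above all WT mice, and Aromhum mouse 1 was highest. The log2 difference was 1.45 ± 0.25 (SE, 95% CI 0.85 to 2.04, adjusted p = 0.0225). Its promoter is shown because Igfbp4 was the member called most often. In RefSeq (GRCm38.p6) the 250 bases before an annotated start, on the plus strand at chr11:99040994-99041243, read as follows, with a TATAAA box in capitals, 28 bases before the start.
Igfbp4: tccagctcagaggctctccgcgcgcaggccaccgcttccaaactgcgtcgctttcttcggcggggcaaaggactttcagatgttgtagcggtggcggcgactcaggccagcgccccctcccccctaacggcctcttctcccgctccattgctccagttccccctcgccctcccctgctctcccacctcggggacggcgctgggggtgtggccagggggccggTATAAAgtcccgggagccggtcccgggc

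Igfbp3 moved the other way, with 82.1, 55.7 and 59.4 CPM in WT mice 1 to 3 and 35.3, 30.5 and 29.2 CPM in Aromhum mice 1 to 3. The groups did not overlap, and WT mouse 1 was highest. The log2 difference was -1.08 ± 0.20 (SE, 95% CI -1.54 to -0.62, adjusted p = 0.0244). The 250 bases before an annotated start of Igfbp3, on the minus strand at chr11:7213924-7214173, held none of the motifs searched, and are shown beside those of Igfbp6, the other member whose genotype difference was called as unlike between cell types below. The Igfbp6 window is on the plus strand at chr15:102143936-102144185, with an estrogen response half-site (GGTCA) in capitals.
Igfbp3: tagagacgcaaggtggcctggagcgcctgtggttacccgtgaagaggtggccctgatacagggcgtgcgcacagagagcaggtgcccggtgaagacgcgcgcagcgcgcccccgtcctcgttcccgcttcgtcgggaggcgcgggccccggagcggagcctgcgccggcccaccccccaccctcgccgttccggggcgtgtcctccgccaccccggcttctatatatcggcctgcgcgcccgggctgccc
Igfbp6: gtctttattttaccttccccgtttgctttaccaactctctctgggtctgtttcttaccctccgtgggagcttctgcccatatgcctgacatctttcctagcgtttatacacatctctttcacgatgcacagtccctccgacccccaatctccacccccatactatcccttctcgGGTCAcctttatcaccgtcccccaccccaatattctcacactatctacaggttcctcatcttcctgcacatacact

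The searched motifs were the full estrogen response element GGTCANNNTGACC and its half-site GGTCA and the GC box GGGCGG on both strands, and TATAAA on the gene's strand, where a full element also counts as a half-site. In windows of this length before 32851 RefSeq starts, 0.0639% held the full element, 35.2% a half-site, 32.7% a GC box and 7.59% TATAAA. Over the 13 windows of the 9 members, 0 members held the full element, 6 a half-site, 4 a GC box and 1, Igfbp4, TATAAA. The half-site had 7 matches over these windows. Some members have more than 1 window, so counts of members and shares of single windows are not like for like. A match describes letters in this window and is no evidence of binding.

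Igf1 in fibroblast-like cells was at 271, 292 and 256 CPM in WT mice 1 to 3 and 536, 461 and 308 CPM in Aromhum mice 1 to 3. The Aromhum mice were all higher, but mouse 3 lay close to the WT mice, and the test was not passed (log2 0.66 ± 0.22 (SE), adjusted p = 0.0887). Igf1r was at 45.1, 50.2 and 49.6 CPM in WT mice 1 to 3 and 34.0, 41.5 and 38.6 CPM in Aromhum mice 1 to 3, lower in every Aromhum mouse and just short of the threshold (log2 -0.36 ± 0.10 (SE), adjusted p = 0.0503). Igfbp5 was at 687, 684 and 695 CPM in WT mice 1 to 3 and 1508, 1507 and 656 CPM in Aromhum mice 1 to 3. Here Aromhum mice 1 and 2 had over 1500 CPM, while mouse 3 lay with the WT mice (log2 0.83 ± 0.33 (SE), adjusted p = 0.131).

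Igfbp6, the most abundant member in these cells, was at 4064, 3998 and 4146 CPM in WT mice 1 to 3 and 3436, 2525 and 3602 CPM in Aromhum mice 1 to 3. All Aromhum mice were lower, by little (log2 -0.38 ± 0.17 (SE), adjusted p = 0.166). Igfbp7 overlapped between genotypes, with 1952 to 2664 CPM in WT mice and 2047 to 3251 CPM in Aromhum mice and a log2 difference whose 95% interval was -0.45 to 0.62 (log2 0.08 ± 0.23 (SE), adjusted p = 0.828). Igfbp2, at 2.59 to 68.5 CPM in WT mice and 2.53 to 15.5 CPM in Aromhum mice, rested on 15 to 117 positive cells per mouse (log2 -1.34 ± 1.13 (SE), adjusted p = 0.445). Groups that did not overlap were seen for 5 of the 8 members, against 36.3% of all genes tested.

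**Figure D3:**
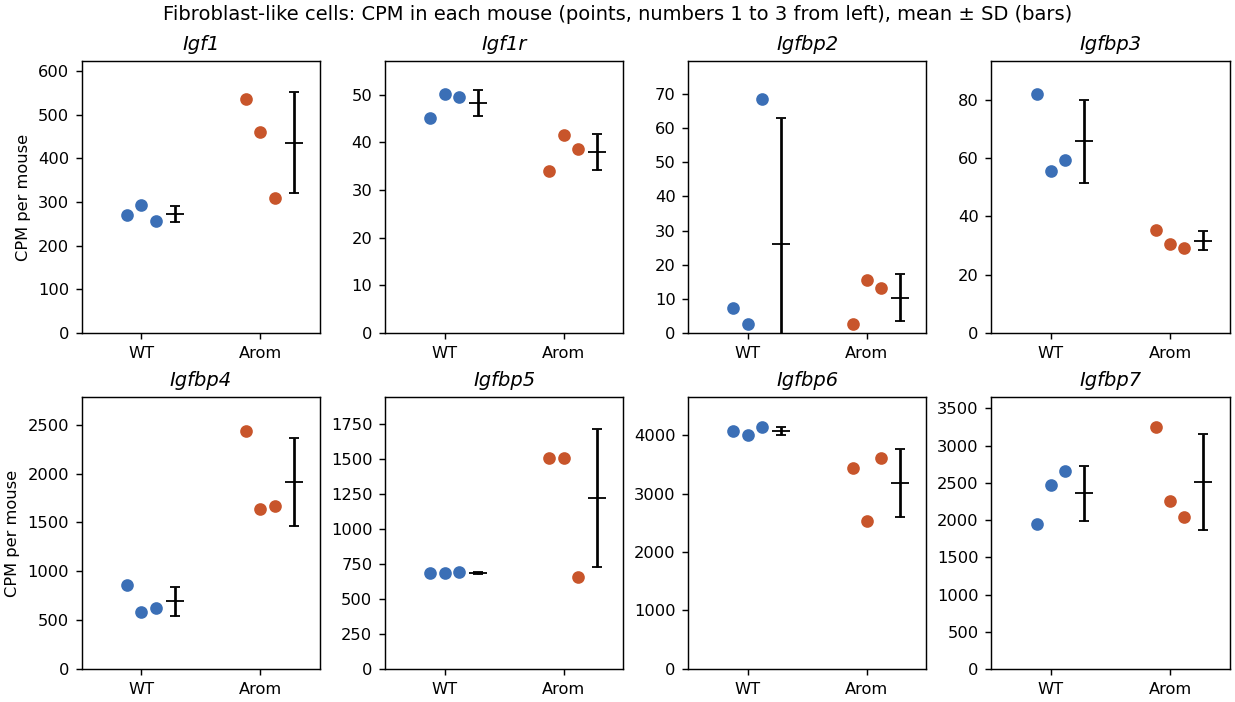
Level of each member in fibroblast-like cells (CPM, one panel per gene with its own axis from 0), with each mouse as a point (numbers 1 to 3 from left) and the mean ± SD as bars; the lower SD bar of Igfbp2 is cut at 0. The 3 Aromhum points of Igfbp4 (1638 to 2435 CPM) lie above all WT points (586 to 861 CPM), and those of Igfbp3 lie below.

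Both calls in fibroblast-like cells leaned on single mice. Called members numbered 1 (Igfbp4) without WT mouse 1, 0 without WT mouse 2, WT mouse 3, Aromhum mouse 1 or Aromhum mouse 2, and 4 (with Igf1 and Igfbp5) without Aromhum mouse 3, while the log2 difference stayed between 1.21 and 1.67 for Igfbp4 and between -1.21 and -0.85 for Igfbp3. Within the cell limits stated by the study (200 to 2500 genes, at least 1000 UMIs, at most 5% mitochondrial UMIs) neither was called, with Igfbp4 at 1.08 (adjusted p = 0.115) and Igfbp3 at -0.53 (adjusted p = 0.323).

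The fibroblast-like cells were then divided into subgroups, since their make-up moved with genotype. Esr1-hi cells were 390, 131 and 110 of the 3389, 2198 and 1388 fibroblast-like cells of WT mice 1 to 3. In Aromhum mice 1 to 3 they were 1400, 1782 and 660 of 4743, 6769 and 3186. The marker sums that follow mix cell numbers with levels per cell. The study reports Pgr and Nppc, both on the Esr1-hi list, as higher in Aromhum than in WT Esr1-hi cells. The summed level of the Esr1-hi marker list in all fibroblast-like cells was 603 to 739.8 CPM in WT mice and 2036 to 3407 CPM in Aromhum mice, and that of the FAP-like list 3530.5 to 5607 CPM in WT mice and 1648 to 3903 CPM in Aromhum mice. With 5 subgroups (FAP-like, Esr1-hi, Dmkn, Tspan8-led and Gdf10-led) given the same weight in each mouse, and Mmp3-hi cells left out because WT mice 2 and 3 had 1 and 7 of them, the Igfbp4 difference was 0.96 (adjusted p = 0.0274) and that of Igfbp3 was -0.33 (adjusted p = 0.47). The weighted levels were tested with limma on log2(CPM + 1) and not with edgeR, so weight and test changed together. Igfbp4 was called in both fits, and Igfbp3 only in the one without that weighting. Igfbp5, which had no edgeR call, was at 0.83 without and -0.17 with that weighting (adjusted p = 0.675). Among the 5 subgroups Igfbp3 was highest in Tspan8-led cells, at 130 ± 50.4 CPM (n = 6). These cells numbered 936, 621 and 362 in WT mice 1 to 3 and 372, 650 and 461 in Aromhum mice 1 to 3. They were a smaller share of the fibroblast-like cells in each Aromhum mouse. Igfbp3 was called lower in none of the 5 subgroups, and the part of this shift in its fall was not tested.

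In FAP-like cells 4 of 7 members were called, where 5.42% of all genes were. Igf1 rose, with 267, 256 and 264 CPM in WT mice 1 to 3 and 662, 552 and 378 CPM in Aromhum mice 1 to 3 (log2 1.00 ± 0.19 (SE, 95% CI 0.57 to 1.42, adjusted p = 0.0179)). The groups did not overlap, and Aromhum mouse 3 was the lowest of its group. Igfbp4 rose as well, with 940.5, 729 and 727 CPM in WT mice 1 to 3 and 2314, 1615 and 1458 CPM in Aromhum mice 1 to 3 (log2 1.14 ± 0.21 (SE, 95% CI 0.68 to 1.60, adjusted p = 0.0141)). Igfbp5 was at 187, 191 and 174 CPM in WT mice 1 to 3 and 613, 372 and 262 CPM in Aromhum mice 1 to 3 (log2 1.16 ± 0.26 (SE, 95% CI 0.58 to 1.73, adjusted p = 0.0322)), again with Aromhum mouse 3 nearest to the WT mice. The receptor gene Igf1r fell in these cells, with 45.6 to 51.9 CPM in WT mice and 34.2 to 38.4 CPM in Aromhum mice (log2 -0.48 ± 0.09 (SE, 95% CI -0.69 to -0.27, adjusted p = 0.0194)), so FAP-like cells had more ligand transcript and less receptor transcript in Aromhum mice. Igfbp3 was lower in each Aromhum mouse without a call (log2 -0.41 ± 0.16 (SE), adjusted p = 0.182). Igfbp6 (log2 0.11 ± 0.18 (SE), adjusted p = 0.763) and Igfbp7 (log2 0.26 ± 0.19 (SE), adjusted p = 0.466) were not called, and Igf2 and Igfbp2 were too low to test. With each mouse left out in turn, Igf1 (0.79 to 1.19 on the log2 scale) kept its call only without Aromhum mouse 3, Igfbp4 (0.90 to 1.31 on the log2 scale) lost its call without WT mouse 2, WT mouse 3 or Aromhum mouse 2, Igfbp5 (0.75 to 1.41 on the log2 scale) kept its call only without Aromhum mouse 3, and Igf1r (-0.53 to -0.46 on the log2 scale) lost its call without WT mouse 2, WT mouse 3 or Aromhum mouse 1.

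Esr1-hi cells had 2 of 8 members called, where 10.6% of genes were. Igfbp4 was at 1146, 782 and 892 CPM in WT mice 1 to 3 and 2933, 1890.3 and 2627 CPM in Aromhum mice 1 to 3, and in each Aromhum mouse this was the type with the most Igfbp4 (log2 1.38 ± 0.23 (SE, 95% CI 0.85 to 1.91, adjusted p = 0.0155)). Igfbp3 rose here, with 5.65, 1.89 and 2.75 CPM in WT mice 1 to 3 and 17.6, 12.7 and 13.8 CPM in Aromhum mice 1 to 3 (log2 1.83 ± 0.35 (SE, 95% CI 1.04 to 2.63, adjusted p = 0.0212)). This is opposite in sign to the whole of the fibroblast-like cells, although the level of Igfbp3 in Esr1-hi cells was low in both genotypes. It rested on 27, 3 and 4 UMIs in WT mice 1 to 3 and 469, 355 and 198 in Aromhum mice 1 to 3, and the 10 richest cells held 38.4, 40.0 and 75.2% of the UMIs in the Aromhum mice. Igf1 overlapped (195 to 457 CPM in WT mice and 202 to 464 CPM in Aromhum mice), as did Igfbp5 (1312 to 2636 CPM in WT mice and 823 to 2434 CPM in Aromhum mice), and Igfbp2 had a wide error (log2 -3.24 ± 1.31 (SE), adjusted p = 0.145). Igf1r (log2 -0.14 ± 0.21 (SE), adjusted p = 0.707), Igfbp6 (log2 -0.37 ± 0.21 (SE), adjusted p = 0.282) and Igfbp7 (log2 0.46 ± 0.30 (SE), adjusted p = 0.346) were not called either, and Igf2 was too low to test. Of the called members, Igfbp4 (1.21 to 1.57 on the log2 scale) lost its call without WT mouse 2, WT mouse 3 or Aromhum mouse 1, and Igfbp3 (1.61 to 2.69 on the log2 scale) kept its call only without WT mouse 1 or Aromhum mouse 3.

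In the Dmkn subgroup only Igfbp7 of 7 members tested was called, where 1.56% of genes were. It was at 358, 269.6 and 204 CPM in WT mice 1 to 3 and 1538, 1000.5 and 519 CPM in Aromhum mice 1 to 3 (log2 1.90 ± 0.38 (SE, 95% CI 1.05 to 2.76, adjusted p = 0.0427)). All Aromhum mice were higher, and their spread was wide. With mice left out, Igfbp7 (1.49 to 2.25 on the log2 scale) kept its call only without Aromhum mouse 3. Igf1r (log2 -0.66 ± 0.16 (SE), adjusted p = 0.0712) and Igfbp5 (log2 -0.56 ± 0.20 (SE), adjusted p = 0.194) were lower in each Aromhum mouse without a call. Tspan8-led and Gdf10-led cells had 0 of 8 and 0 of 7 members called by edgeR, where 0.111% and 0.277% of genes were. In each of the 2 clusters 2 members had an unadjusted p under 0.05, as had 1901 of 10833 and 633 of 4697 genes. DESeq2 called 2 and 0 members. Tspan8-led cells had Igf1 at 299 to 392 CPM in WT mice and 507 to 777 CPM in Aromhum mice (log2 0.92 ± 0.20 (SE), adjusted p = 0.102).

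Tenocyte-like cells, the matrix cells of tendon, had 2 of 7 members called, where 1.05% of genes were. Igf1 was at 255, 302 and 255 CPM in WT mice 1 to 3 and 1096, 832 and 415 CPM in Aromhum mice 1 to 3 (log2 1.45 ± 0.28 (SE, 95% CI 0.83 to 2.07, adjusted p = 0.0401)). Aromhum mouse 1 had the highest Igf1 level of any mouse and type. Igfbp5 was at 848, 874 and 764 CPM in WT mice 1 to 3 and 1437, 1546 and 1701 CPM in Aromhum mice 1 to 3 (log2 0.84 ± 0.14 (SE, 95% CI 0.54 to 1.14, adjusted p = 0.0264)), and Igfbp4 lay at 170.0 to 346 CPM in WT mice and 474 to 999 CPM in Aromhum mice (log2 1.41 ± 0.29 (SE), adjusted p = 0.0504). Both calls leaned on most mice, as Igf1 (1.10 to 1.76 on the log2 scale) kept its call only without Aromhum mouse 3 and Igfbp5 (0.76 to 0.89 on the log2 scale) kept its call only without Aromhum mouse 1 or Aromhum mouse 3.

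**Figure D4:**
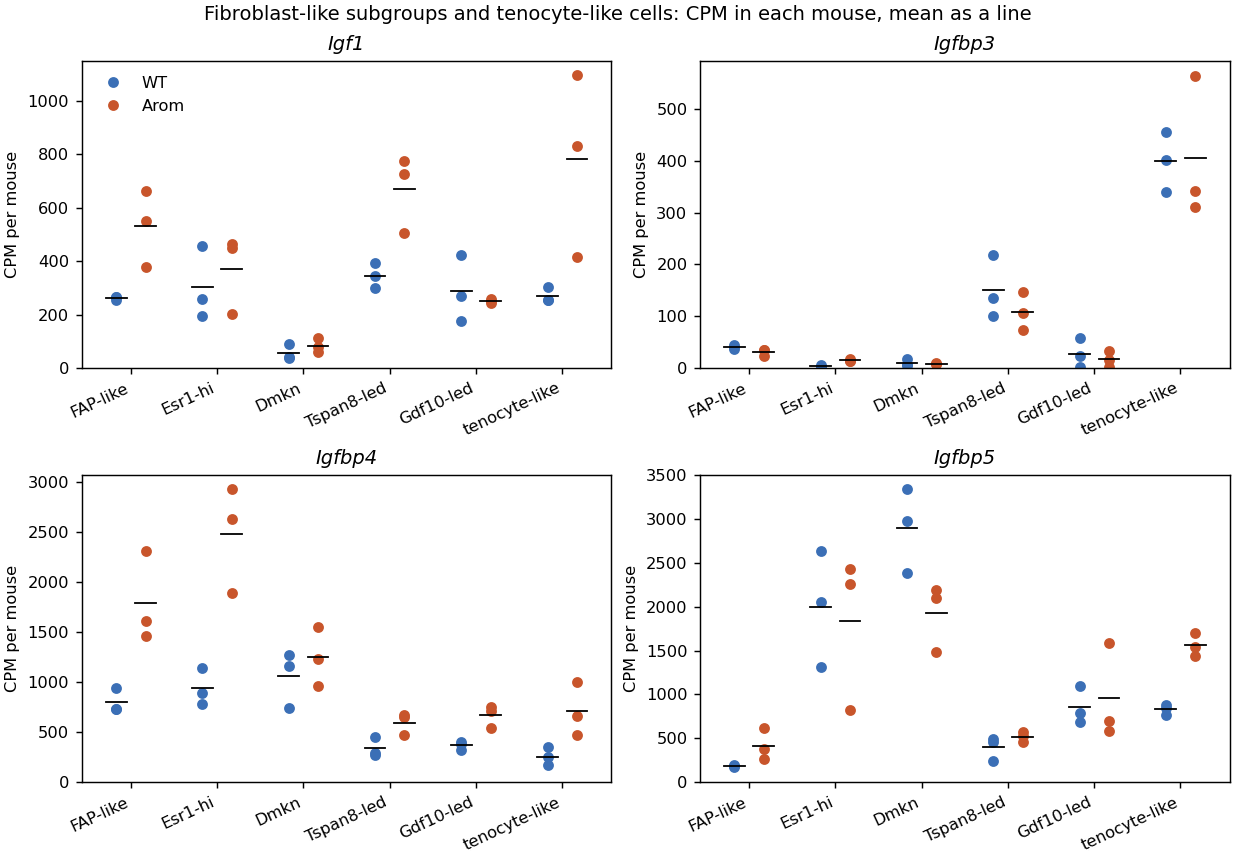
Levels (CPM) of members in the fibroblast-like subgroups and tenocyte-like cells, one panel per gene, with each mouse as a point and the group mean as a line, WT and Aromhum in separate colours. Igfbp4 is higher in Aromhum mice in FAP-like and Esr1-hi cells, and Igfbp3 rises in Esr1-hi cells (log2 1.83) while it is lower or overlapping elsewhere.

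In blood endothelial cells 2 of 8 members rose and none fell, where 14.3% of the 12086 genes tested were called in either direction and 8.32% as higher, and the median log2 difference was 0.42 over the members and -0.00789 over all genes. Igfbp4 was at 234, 135 and 185 CPM in WT mice 1 to 3 and 519, 284 and 332 CPM in Aromhum mice 1 to 3 (log2 1.04 ± 0.25 (SE, 95% CI 0.48 to 1.61, adjusted p = 0.0265)). Igf1 was at 31.9, 20.4 and 21.0 CPM in WT mice 1 to 3 and 51.0, 42.3 and 37.8 CPM in Aromhum mice 1 to 3 (log2 0.86 ± 0.19 (SE, 95% CI 0.43 to 1.28, adjusted p = 0.019)). With cell groups read from the column order of the table neither was called (Igfbp4 0.73, adjusted p = 0.145, and Igf1 0.73, adjusted p = 0.125). Both genes were higher in all 3 Aromhum mice, and Igf1 stayed far below its fibroblast-like level. Within the blood endothelium Igf1 was highest in venular cells, and there it was lower in 2 of the 3 Aromhum mice than in any WT mouse, with 93.5, 94.8 and 77.8 CPM in WT mice 1 to 3 and 78.8, 75.2 and 70.6 CPM in Aromhum mice 1 to 3 (log2 -0.37 ± 0.13 (SE), adjusted p = 0.163). In capillary cells Igf1 was at 6.5 to 8.15 CPM in WT mice and 7.99 to 11.6 CPM in Aromhum mice (log2 0.44 ± 0.30 (SE), adjusted p = 0.808), and in arterial cells it was too low to test. The summed fibroblast-like markers in all blood endothelial cells were 184 to 337 CPM in WT mice and 445 to 534 CPM in Aromhum mice, and their part in the Igf1 and Igfbp4 differences, and in that of Igfbp6 given next, was not tested. The endothelial subgroup make-up moved too. Venular cells numbered 458, 283 and 372 in WT mice 1 to 3 and 912, 546 and 631 in Aromhum mice 1 to 3. Capillary cells numbered 1203, 1749 and 1215 in WT mice 1 to 3 and 331, 315 and 456 in Aromhum mice 1 to 3. The venular marker sum was 2378 to 4412 CPM in WT mice and 6934 to 9312 CPM in Aromhum mice. The capillary sum was 2895 to 3559 CPM in WT mice and 1625 to 1925 CPM in Aromhum mice. Such sums also carry levels per cell.

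Mice of the same number deviated together in blood endothelial cells, though those of number 2 did not in fibroblast-like cells. With the replicate block Igfbp6 was also called (0.64, adjusted p = 0.0163, against 0.64, adjusted p = 0.108 without it), which made 3 members called. Pairs were picked from these data by cell type, so calls with the block are an alternative, and the shares of genes above are without it. Igfbp6 was at 34.9, 18.9 and 27.3 CPM in WT mice 1 to 3 and 36.7, 33.1 and 54.3 CPM in Aromhum mice 1 to 3. Igfbp5 was at 21.5 to 26.7 CPM in WT mice and 22.7 to 56.3 CPM in Aromhum mice (log2 0.59 ± 0.26 (SE), adjusted p = 0.153), and Igfbp7, the most abundant member in these cells, at 3614 to 4062 CPM in WT mice and 3856 to 5451 CPM in Aromhum mice (log2 0.25 ± 0.15 (SE), adjusted p = 0.281). Igfbp3 (log2 -0.21 ± 0.13 (SE), adjusted p = 0.285), Igf1r (log2 -0.08 ± 0.15 (SE), adjusted p = 0.767) and Igf2 (log2 -0.27 ± 0.60 (SE), adjusted p = 0.795) overlapped between genotypes, and Igfbp2 was too low to test. Within the endothelium, capillary, arterial and venular cells had 0 of 7 members called each by edgeR and 0 by DESeq2, where 0.225, 0.190 and 1.04% of genes were by edgeR. An unadjusted p under 0.05 was found for 3, 1 and 3 members, and for 696 of 9783, 931 of 8961 and 1709 of 9475 genes. Same-numbered mice deviated together in capillary cells as well, and with the block Igfbp4 (0.74, adjusted p = 0.028), Igfbp5 (1.08, adjusted p = 0.000853) and Igfbp6 (0.64, adjusted p = 0.0116) were called there, beside a fibroblast-like marker sum of 182 to 353 CPM in WT mice and 558 to 648 CPM in Aromhum mice, whose part was not tested. The 0.225% of genes is for the fit without the block. Igfbp4 in arterial cells was at 542 to 681 CPM in WT mice and 748 to 1527 CPM in Aromhum mice (log2 0.73 ± 0.22 (SE), adjusted p = 0.258), and in venular cells at 293 to 389 CPM in WT mice and 318 to 443 CPM in Aromhum mice (log2 0.08 ± 0.16 (SE), adjusted p = 0.826). The 2 calls in all blood endothelial cells were lost without WT mouse 2, WT mouse 3 or Aromhum mouse 1, when Igfbp4 stood at 0.85, 1.05 and 0.73 and Igf1 at 0.73, 0.76 and 0.71, and Igf1 also without Aromhum mouse 2 (0.89, with Igfbp4 still called).

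Whether the genotype difference itself differed between fibroblast-like and blood endothelial cells was tested with an interaction term, with 2 sums per mouse. It did for 2 of 9 members, where 11.6% of the 13914 genes tested were called. The difference of Igfbp3 was more negative in fibroblast-like cells by -0.85 ± 0.19 (SE, 95% CI -1.28 to -0.42, adjusted p = 0.0243) on the log2 scale, and that of Igfbp6 by -1.03 ± 0.22 (SE, 95% CI -1.52 to -0.54, adjusted p = 0.0199). Igfbp6 was lower in the fibroblast-like cells of each Aromhum mouse and 0.64 higher in endothelial cells, but neither was called by edgeR without the block (adjusted p = 0.166 and 0.108). In endothelial cells its groups overlapped and its level was far below the fibroblast-like one. The fibroblast-like marker sum of endothelial cells, given above, rose too, and its part was not tested. For Igfbp4 the term was 0.41 ± 0.14 (SE, 95% CI 0.08 to 0.73, adjusted p = 0.0978), and for Igf1 -0.26 ± 0.20 (SE, 95% CI -0.71 to 0.19, adjusted p = 0.429). The terms of Igf1r, Igf2, Igfbp2, Igfbp5 and Igfbp7 were -0.28, 0.45, -1.81, 0.19 and -0.19, none of them called. A larger rise of Igfbp4 in fibroblast-like cells was therefore not called. Without single mice the 2 calls became 0 (without WT mouse 3 or Aromhum mouse 2) or 1 (Igfbp6 without WT mouse 1 or Aromhum mouse 1, Igfbp3 without WT mouse 2), with terms of -1.06 to -0.66 for Igfbp3 and -1.21 to -0.82 for Igfbp6. Without Aromhum mouse 3 both calls stayed and 1 other member was called.

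In mural cells, the smooth muscle cells and pericytes around vessels, 0 of 7 members were called by edgeR and 0 by DESeq2, where 0.392% of the 9447 genes were called by edgeR. An unadjusted p under 0.05 was found for 2 members and 1811 of these genes. Igfbp7 was at 3064, 2929 and 3596 CPM in WT mice 1 to 3 and 5626, 3761 and 3932 CPM in Aromhum mice 1 to 3, higher in each Aromhum mouse (log2 0.41 ± 0.21 (SE), adjusted p = 0.302). Igf1 was at 11.3 to 29.0 CPM in WT mice and 39.1 to 70.4 CPM in Aromhum mice (log2 1.09 ± 0.33 (SE), adjusted p = 0.134). Igfbp5 lay at 1567 to 1866 CPM in WT mice and 1549.8 to 1704 CPM in Aromhum mice, with an interval of the log2 difference from -0.44 to 0.23 (log2 -0.11 ± 0.15 (SE), adjusted p = 0.743). The remaining members, Igfbp3, Igfbp4, Igfbp6 and Igf1r, overlapped between genotypes, with log2 differences of -0.89, -0.10, 0.09 and -0.03. The signs of Igfbp4, Igfbp5, Igfbp6 and Igf1r in mural cells turned under alternatives that are given in the last paragraph. Igf2 and Igfbp2 were too low to test.

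Over all 20 other cell types and subgroups, the subgroups above included, 11 of 140 member tests were called, 10 higher and 1 lower, where 1.62% of all gene tests in these types were (0.881% higher and 0.743% lower). Igfbp4 and Igfbp5 had 3 calls each, all higher, Igf1 2, and Igfbp3, Igfbp7 and Igf1r 1 each. Igfbp4 was above 0 on the log2 scale in 18 of its 20 tests. Its Aromhum mice lay above all WT mice in 12, where 12.3% of all gene tests had groups so placed. The fibroblast-like marker sum was also higher in each Aromhum mouse in capillary cells, MuSC/myoblasts, macrophages and monocytes, and myelinating glia. No background from free RNA was estimated, and the part of such markers in these Igfbp4 counts was not tested. With the replicate block 35 were called, a count not read against the shares above, which are from fits without a block. In the 4 types whose same-numbered mice deviated together (capillary cells, MuSC/myoblasts, myonuclei and macrophages and monocytes) 9 of 28 were called with the block and 1 without, and in the other 16 types 26 of 112 with it and 10 without. The 26 include Igfbp5 in T cells, which passed the low-count filter through the Aromhum mice alone. These types come from the same 6 mice and some are parts of others. With single mice left out, all member calls in these types, among the 11 or not, numbered 0 (without WT mouse 2) to 36 (without Aromhum mouse 3). They were 6 without WT mouse 1, 1 without WT mouse 3, 3 without Aromhum mouse 1 and 2 without Aromhum mouse 2. None of the 11 kept its call without WT mouse 3, so the 1 call there was another. Within the study's cell limits 2 of 63 were called.

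Among immune cells, macrophages and monocytes had Igfbp5 called, with 51.7, 32.2 and 37.9 CPM in WT mice 1 to 3 and 174, 296 and 243 CPM in Aromhum mice 1 to 3 (log2 2.50 ± 0.29 (SE, 95% CI 1.83 to 3.16, adjusted p = 0.00875)), where 0.685% of genes were called. All 8 fibroblast-like markers had UMIs in these cells, and their sum moved in the same direction, at 2356 to 3507 CPM in WT mice and 6702 to 8415 CPM in Aromhum mice; its part was not tested. With single mice left out, Igfbp5 (2.29 to 2.74 on the log2 scale) lost its call without WT mouse 2, WT mouse 3 or Aromhum mouse 2. T cells had 0 of 6 members called by edgeR and 3 by DESeq2, where 0.693% of genes were by edgeR. An unadjusted p under 0.05 was found for 3 members and 405 of 2886 genes. The 3 include Igfbp5, whose pass of the low-count filter is given below, so these counts are not read as a result. Igfbp5 and Igfbp6 in T cells had large differences (log2 3.94 ± 0.76 (SE), adjusted p = 0.0634, and log2 3.58 ± 0.70 (SE), adjusted p = 0.0634). Igfbp5 rested on 1, 8 and 2 UMIs in WT mice 1 to 3 and 161, 378 and 14 in Aromhum mice 1 to 3, and it passed the low-count filter (48.2 CPM in these cells) through the Aromhum mice alone, so its difference is a description. Few cells carried them, as 98 of the 161 Igfbp5 UMIs of Aromhum mouse 1 lay in 1 cell, and the fibroblast-like marker sum in T cells was 205 to 5248 CPM in WT mice and 4796 to 19924 CPM in Aromhum mice, whose part was not tested.

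Myelinating glia, the Schwann cells of nerve, had Igfbp4 called, with 164, 105 and 146 CPM in WT mice 1 to 3 and 481, 319 and 230.5 CPM in Aromhum mice 1 to 3 (log2 1.26 ± 0.23 (SE, 95% CI 0.76 to 1.77, adjusted p = 0.0396)), where 0.430% of genes were. Their fibroblast-like marker sum was 10219 to 11369 CPM in WT mice and 13085 to 14590.0 CPM in Aromhum mice, and its part was not tested. Here Igfbp4 (0.94 to 1.50 on the log2 scale) kept its call only without Aromhum mouse 3. In mesothelial cells 0 of 8 members were called by edgeR and 3 by DESeq2, where 0.283% of genes were by edgeR. An unadjusted p under 0.05 was found for 6 members and 2395 of 11651 genes. Yet Igf1 (log2 1.36 ± 0.26 (SE), adjusted p = 0.0607), Igfbp4 (log2 1.54 ± 0.41 (SE), adjusted p = 0.097) and Igfbp7 (log2 1.01 ± 0.19 (SE), adjusted p = 0.0598) were higher in each Aromhum mouse, and Igfbp6 (log2 -0.60 ± 0.22 (SE), adjusted p = 0.176) was lower in each. Muscle stem cells and myoblasts, in which IGF signals drive growth, had 0 of 7 members called by edgeR and 1 by DESeq2, where 2.28% of genes were by edgeR. In these cells 5 members and 1720 of 8099 genes had an unadjusted p under 0.05. Igfbp5, a gene of differentiating myoblasts, was at 561, 579 and 388 CPM in WT mice 1 to 3 and 2031, 2519 and 615 CPM in Aromhum mice 1 to 3 in them (log2 1.62 ± 0.39 (SE), adjusted p = 0.0585), beside a fibroblast-like marker sum of 652 to 904 CPM in WT mice and 1416 to 4239.8 CPM in Aromhum mice, whose part was not tested. With the replicate block, since same-numbered mice deviated together in these cells, Igfbp5 (1.46, adjusted p = 0.00553), Igfbp6 (1.22, adjusted p = 0.00242) and Igfbp7 (1.74, adjusted p = 0.0456) were called, while the 2.28% of genes is for the fit without it.

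Lymphatic endothelial cells, the richest in Igfbp5, had 0 of 7 members called by edgeR and 0 by DESeq2, where 0% of genes were by edgeR. An unadjusted p under 0.05 was found for 2 members and 513 of 7639 genes. Igfbp5 in these cells was at 2398 to 3329.9 CPM in WT mice and 2149 to 2604 CPM in Aromhum mice (log2 -0.22 ± 0.15 (SE), adjusted p = 0.81). Myonuclei, dendritic-like cells, non-myelinating glia, smooth muscle cells and pericytes had no member called by edgeR either, where 0.107, 0, 0.115, 1.02 and 0% of genes were. Members with an unadjusted p under 0.05 numbered 2, 3, 2, 1 and 0, and DESeq2 called 1, in smooth muscle cells. Among all genes 630 of 7461, 398 of 8075, 620 of 6965, 1880 of 8795 and 348 of 4948 had such a p. Same-numbered mice deviated together in myonuclei too, where the block called Igfbp4 (1.12, adjusted p = 0.0116) and Igfbp5 (1.17, adjusted p = 0.0423), beside a fibroblast-like marker sum of 2386 to 6294 CPM in WT mice and 2602 to 8632 CPM in Aromhum mice, whose part was not tested. The share of genes given for myonuclei is from the fit without the block. Igf1 in smooth muscle cells was nearest to the threshold among these (log2 1.39 ± 0.33 (SE), adjusted p = 0.0647). Mmp3-hi cells and neutrophils were not tested, since some mice had fewer than 20 of them.

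In the whole suspension, where all barcodes of a mouse were summed, 2 of 9 members rose and 1 fell, where 23.6% of the 15334 genes tested were called (12.4% higher and 11.2% lower). Igfbp4 was at 533, 283 and 289 CPM in WT mice 1 to 3 and 1624, 1171 and 985 CPM in Aromhum mice 1 to 3 (log2 1.80 ± 0.35 (SE, 95% CI 0.95 to 2.65, adjusted p = 0.0215)). Igf1 was at 158, 119 and 89.3 CPM in WT mice 1 to 3 and 376, 335 and 208 CPM in Aromhum mice 1 to 3 (log2 1.36 ± 0.32 (SE, 95% CI 0.59 to 2.14, adjusted p = 0.0323)). Igfbp3 was at 101, 105 and 104 CPM in WT mice 1 to 3 and 56.6, 39.9 and 60.3 CPM in Aromhum mice 1 to 3 (log2 -0.96 ± 0.15 (SE, 95% CI -1.32 to -0.59, adjusted p = 0.018)). None of the 3 overlapped between genotypes, and these sums also carry the larger fibroblast-like share of Aromhum libraries. Igfbp5 (log2 0.93 ± 0.30 (SE), adjusted p = 0.0691) and Igf1r (log2 -0.38 ± 0.11 (SE), adjusted p = 0.054) did not overlap either, without a call by edgeR but with one by DESeq2 (adjusted p = 0.00892 and 0.00857), which called 5 members in all. In this comparison Igfbp6 (log2 0.39 ± 0.21 (SE), adjusted p = 0.216), Igfbp7 (log2 0.11 ± 0.16 (SE), adjusted p = 0.625), Igfbp2 (log2 0.56 ± 0.93 (SE), adjusted p = 0.677) and Igf2 (log2 -1.38 ± 1.26 (SE), adjusted p = 0.45) overlapped. No member was called without WT mouse 2, WT mouse 3, Aromhum mouse 1 or Aromhum mouse 2, with Igfbp4 at 1.63, 1.65, 1.56 and 1.84, nor within the study's cell limits (1.11).

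**Figure D5:**
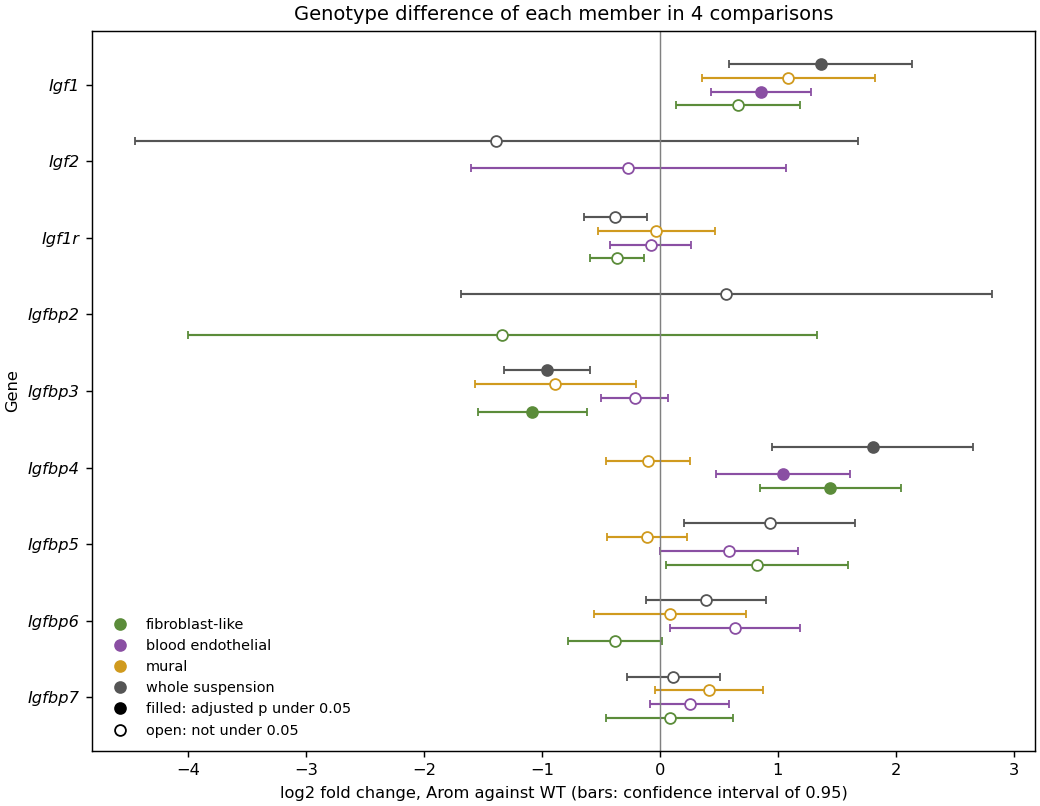
Genotype difference (log2, Aromhum minus WT, point and 95% interval) of each member in fibroblast-like, blood endothelial, mural and whole-suspension sums. Igfbp4 lies right of 0 in fibroblast-like (1.45), blood endothelial (1.04) and whole-suspension sums (1.80) but at -0.10 in mural cells, where its sign turned under some alternatives. Igfbp3 lies left of 0 in all 4 comparisons.

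Other genes of the pathway were taken from a list of 38, of which 34 were in the table, and were read against the shares of all genes given above. In fibroblast-like cells 7 of 30 tested rose, 5 fell and 18 did not pass, with a median log2 difference of 0.0766 over the list and 0.00907 over all genes. Among those that rose were regulators of the binding proteins. Pappa, the protease that cuts Igfbp4, was at 6.65, 5.24 and 7.13 CPM in WT mice 1 to 3 and 31.2, 31.6 and 20.3 CPM in Aromhum mice 1 to 3 (2.12, adjusted p = 0.0117). Its known inhibitor Stc1 rose as well, with 1.64 to 3.04 CPM in WT mice and 5.09 to 21.1 CPM in Aromhum mice (2.54, adjusted p = 0.0349), as did the proteases Htra1 (1.16, adjusted p = 0.0248) and Adam12 (2.48, adjusted p = 0.0272). Socs2, a feedback inhibitor of growth hormone signals (1.24, adjusted p = 0.0191), and Fbxo32, a ubiquitin ligase known from muscle atrophy (1.75, adjusted p = 0.0185), also rose. Irs2, an adaptor of the insulin and IGF1 receptors, fell (-0.55, adjusted p = 0.0338), and so did the RNA-binding protein gene Igf2bp3 (-0.66, adjusted p = 0.0338). The Esr1-hi marker sum given above moved with genotype in these cells, and the study lists Socs2 and Fbxo32 among the top genes of its Esr1-hi cluster. The part of this shift in the differences of the listed genes was not tested.

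In blood endothelial cells 8 of 26 listed genes rose, 1 fell and 17 did not pass, with a median of 0.205 over the list. The insulin receptor gene Insr was at 48.0, 27.8 and 32.4 CPM in WT mice 1 to 3 and 129.7, 106 and 80.5 CPM in Aromhum mice 1 to 3 (1.56, adjusted p = 0.00571). Pik3r1, a subunit of the kinase downstream of both receptors, rose (0.62, adjusted p = 0.00975), as did the transcription factor gene Foxo1 (0.41, adjusted p = 0.045). The binding protein regulators Htra1 (1.04, adjusted p = 0.0157), Stc2 (1.45, adjusted p = 0.0158), Stc1 (1.06, adjusted p = 0.0358) and Adam12 (1.97, adjusted p = 0.022) were higher too, and Igf2bp2 was lower (-1.01, adjusted p = 0.0371). The fibroblast-like, venular and capillary marker sums given above moved with genotype in these cells, and their part in the differences of the listed genes was not tested. The interaction between the 2 cell types was called for 5 listed genes, with Insr at -1.84 ± 0.25 (SE, 95% CI -2.40 to -1.28, adjusted p = 0.00482), Pik3r1 at -1.33 ± 0.18 (SE, 95% CI -1.73 to -0.92, adjusted p = 0.0048), Stat5b at -0.70 ± 0.19 (SE, 95% CI -1.13 to -0.27, adjusted p = 0.0466), Socs2 at 0.96 ± 0.24 (SE, 95% CI 0.42 to 1.50, adjusted p = 0.0333) and Fbxo32 at 1.66 ± 0.40 (SE, 95% CI 0.77 to 2.55, adjusted p = 0.0296). Other genes of receptor signalling, Irs1, Irs2, Igf2r, Pik3ca, Akt1, Akt2 and Shc1, were not called (adjusted p = 0.0621 to 0.654).

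Mural cells had 0 of 24 listed genes called by edgeR and 1 by DESeq2 (6 had an unadjusted p under 0.05), and the whole suspension 6 higher and 0 lower of 32, which were Pappa (2.80, adjusted p = 0.0179), Stc2 (1.41, adjusted p = 0.0179), Htra1 (1.49, adjusted p = 0.0182), Fbxo32 (1.28, adjusted p = 0.0182), Adam12 (2.26, adjusted p = 0.0246) and the receptor gene Lrp1 (0.97, adjusted p = 0.0292). FAP-like cells had 3 higher and 1 lower of 29, and Esr1-hi cells 7 higher and 1 lower of 29. Pappa in Esr1-hi cells was at 14.9, 4.4 and 6.87 CPM in WT mice 1 to 3 and 61.6, 68.7 and 47.9 CPM in Aromhum mice 1 to 3, so the protease gene and its substrate gene Igfbp4 were both highest in these cells among the fibroblast-like subgroups in each Aromhum mouse. In macrophages and monocytes 2 listed genes rose (Socs2 and Htra1), in the Dmkn subgroup 1 (Adam12) and in Gdf10-led cells 1 (Fbxo32). The other tested types had 0 by edgeR, with 1 to 11 listed genes each at an unadjusted p under 0.05 and 0 to 3 called by DESeq2. Counts of listed genes at an unadjusted p or by DESeq2, those in mural cells included, are not read as results.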

How the data were processed

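Cells of LAM from 3 WT and 3 Aromhum mice were analysed. The authors aligned reads with Cell Ranger 3.0.2 to the mouse genome mm10 with human CYP19A1 added and deposited 1 table of UMI counts per gene and cell, with no cell type labels. It held 63647 barcodes and was not limited by the cell filters the study states. The members and all gene and marker lists were chosen with earlier results of these data known.

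Cells were clustered with scanpy 1.11.5 (2000 variable genes without the members and listed pathway genes, 30 components, 20 neighbours, Leiden resolution 0.8) and clusters named from fixed marker lists. Clusters in which the list of an unlike class scored near the best list were among those left unnamed. Named clusters could still carry markers of another class, as the fibroblast-like marker sums above show. The rules for mixed clusters and for the names Tspan8-led and Gdf10-led were set after the clusters were seen. Doublets stayed in the main results, since the Scrublet method's automatic threshold marked 0 cells in 2 libraries, and an alternative left out the 5% of cells with the highest scores in each library. CPM was computed from the deposited counts for mice with at least 10 cells of a type.

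Counts summed per mouse were tested with edgeR 4.0.16 (TMM, filterByExpr, quasi-likelihood test) where each mouse had at least 20 cells, with Benjamini-Hochberg adjustment over all genes tested and a threshold of 0.05. The script was tested on simulated counts. All 9 members were named in the fibroblast-like, blood endothelial, mural, whole-suspension and interaction comparisons, and of the other pathway genes those called there with the smallest adjusted p, up to 8. In the other types the rule was kept in part. Promoter windows come from RefSeq (GRCm38.p6). The labels name 6 samples and the study's methods describe them as mice, so p-values measure the spread between these 6 libraries, which may in part be technical.

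Alternatives were DESeq2 1.42.0, RLE size factors, no low-count filter, a replicate block, each mouse left out, the study's cell limits with and without the upper gene limit, removal of marked doublets and equal weight of subgroups, and, chosen after seeing the data, resolutions 0.4 and 1.2 and groups read from the column order of the table. The equal-weight alternative was fitted with limma 3.58.1 on log2(CPM + 1). The study's methods give 1 mouse of each genotype per harvest date, and the labels do not tie the numbers to dates. In blood endothelial cells the deviations of same-numbered mice from their group means correlated at 0.25, 0.15 and 0.32 for numbers 1 to 3, so the numbers were taken as pairs there. In capillary cells, MuSC/myoblasts, myonuclei and macrophages and monocytes each of these values was above 0.1 too (0.102 to 0.338), a check added after the calls with a block were known. In fibroblast-like cells the values were 0.21, -0.13 and 0.16, and the numbers were not taken as pairs. A shared harvest date would hold for every cell type of a mouse, so this split by cell type rests on the data alone. Calls with the block are given as an alternative.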

Additional observations from a re-analysis of the deposited data

Results flagged for a closer look

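Genotype differences that were unlike between cell types were marked for a closer look. The interaction test called Igfbp3 (-0.85 on the log2 scale) and Igfbp6 (-1.03) as more negative in fibroblast-like than in blood endothelial cells. Igfbp6 was called in neither type alone by edgeR without the block, and the part of fibroblast-like markers in endothelial cells was not tested. For 5 of the 8 members tested in at least 2 types, all Aromhum mice lay above all WT mice in 1 cell type and below them in another. These contrasts were not tested. Of all genes tested in at least 2 of the 20 types, 27.4% had such a pair of types. The count and this share are not like for like, since these 5 members were tested in 18 to 20 types each. For Igf1r the log2 difference was 0.85 in Gdf10-led cells and -0.66 in the Dmkn subgroup. Igfbp3 stood at 1.83 in Esr1-hi cells and -1.38 in myelinating glia. Igfbp5 stood at 1.16 in FAP-like cells, where all Aromhum mice were above all WT mice, and -0.56 in the Dmkn subgroup. Its 3.94 in T cells supports no contrast, since it passed the low-count filter there through the Aromhum mice alone. Igfbp6 stood at 3.58 in T cells, beside the fibroblast-like marker sums given above, and -0.60 in mesothelial cells. For Igfbp7 the values were 1.90 in the Dmkn subgroup and -0.40 in tenocyte-like cells.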

How the results depend on the processing

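Depth limits Igf2, with at most 66 UMIs in a library, Igfbp2 rested on few positive cells, and with 3 mice a group leaving out 1 leaves fewer samples for the same test. For the members in the fibroblast-like, blood endothelial, mural, whole-suspension and interaction comparisons and the 11 calls in other types, 546 log2 differences under an alternative kept direction and side of the threshold, 101 kept direction and lost the call, 22 gained one (calls gained by other members in other types are in the counts below) and 24 turned sign, all 24 for members without a call. Beyond the smaller number of samples, causes were not tested. The numbers of members called in the fibroblast-like (2), blood endothelial (2), whole-suspension (3), interaction (2) and other-type (11) comparisons ranged from 0 to 4, 0 to 3, 0 to 4, 0 to 3 and 0 to 36 with 1 mouse left out. DESeq2 called 5 in fibroblast-like cells, 5 in the whole suspension and 23 in the other types. The shares of all genes given above are from the main edgeR fits, so counts of members under DESeq2 or another alternative are not read against them. The study's cell limits left 0, 0 and 2, and gave no value for mural cells, which were then too few. With equal weight of subgroups 1 was called in fibroblast-like cells. Over the other types 30 were called without the low-count filter, 3 at resolution 0.4, 5 at 1.2 and 3 with the column-order groups, which gave 0 in blood endothelial and 2 in mural cells against 0.

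The replicate block gave 2 calls in fibroblast-like cells, 3 in blood endothelial cells, 3 in the whole suspension, 1 (Igf1) in mural cells and 35 over the other types. Same-numbered mice correlated at 0.18, 0.08 and 0.25 in mural cells and 0.25, -0.02 and 0.30 in the whole suspension, so the numbers were not taken as pairs there. Over the 16 other types whose numbers were not taken as pairs the block gave 26 calls against 10. The shares of all genes given above are from fits without the block, so these counts are not read as a result about the members. The interaction model already held a term for each mouse, so no block was added to it.

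Cells with at least 1000 UMIs were thinned to 1000 UMIs, and the others were left out. The share of thinned cells with a UMI was 26.6% for Igf1 and 21.3% for Igfbp3 in tenocyte-like cells. It was 0.368% for Igf2 in arterial cells, 13.3% for Igf1r in T cells and 69.0% for Igfbp4 in Esr1-hi cells. For Igfbp5 in lymphatic cells it was 58.6%, for Igfbp6 in the Dmkn subgroup 96.3% and for Igfbp7 in capillary cells 96.2%. Within the study's limits Igfbp3 in tenocyte-like cells was at 586 CPM and Igfbp5 in lymphatic cells at 2002 CPM.

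Sign changes on the log2 scale were as follows. In fibroblast-like cells Igfbp7 was at -0.12 within the study's limits and -0.17 to 0.23 with 1 mouse left out, Igfbp2 at -1.89 to 0.99 with 1 left out, and Igfbp5 at -0.17 with equal weight. In blood endothelial cells Igf2 was at -1.21 to 0.16 and Igf1r at -0.27 to 0.040 with 1 left out. In mural cells Igf1r was at 0.0038 with the block, 0.013 without marked doublets and -0.28 to 0.14 with 1 mouse left out, and Igfbp6 at -0.40 without marked doublets, -0.063 without the upper gene limit and -0.20 to 0.38 with 1 left out. Without the upper gene limit mural Igfbp5 was at 0.11 and Igfbp4 at 1.05, and with the column-order groups Igfbp4 at 0.22. In the whole suspension Igfbp7 was at -0.17 within the limits and -0.036 to 0.20 with 1 left out, and Igfbp2 at -0.052 to 1.86. The interaction of Igf2 was -0.29 to 4.46 and that of Igfbp5 -0.067 to 0.34 with 1 left out.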
